A study of Homo sapiens with 3 samples.

Results

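Genes of sterol and fatty acid synthesis were examined after cisplatin in KYSE140, a long-established line of human squamous cell carcinoma of the oesophagus. The group was a list of 30 named genes that covers the enzymes from acetyl-CoA to cholesterol, the proteins that sense sterols, and the main enzymes that build and desaturate fatty acids. A member was counted as measured where at least 1 probe set carried its symbol and no other, with the older names SC4MOL for MSMO1 and SC5DL for SC5D accepted. By that rule 27 of the 30 members were measured, by 60 probe sets, among 19775 genes in all. CYP51A1 and FADS1 share their probe sets with another symbol and FDFT1 had no probe set listed under its symbol, so expression of these 3 members is not analysed here. Where a gene had several probe sets, the brightest on average over the 3 arrays stood for it.

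The study held 3 Affymetrix oligonucleotide arrays of total RNA. One group was KYSE140 left untreated (1 array), and the other was KYSE140 given cisplatin, a platinum compound that crosslinks DNA, for 12 h at a labelled 10 mM (2 arrays, titled B1 and B2). All 3 came from the same line grown in RPMI medium with serum, and the labels do not say whether B1 and B2 were separate cultures, so their spread may be technical. The dose is given as the labels state it, and whether its unit should be micromolar could not be settled from the files. Values are intensities on a linear scale, and differences are log2 of a cisplatin array minus log2 of the untreated array. The study's text gives its aim as expression profiling of the line under cisplatin.

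Animal cells make cholesterol from acetyl-CoA through mevalonate, isoprenoid diphosphates, squalene and lanosterol. The transcription factors SREBP-1 and SREBP-2, encoded by SREBF1 and SREBF2, drive the genes of this route and of fatty acid synthesis. They are made in the endoplasmic reticulum membrane, where the escort protein SCAP carries them to the Golgi for cleavage when sterols are low, and INSIG1 and INSIG2 hold SCAP back when sterols are high. INSIG1 is itself a target of SREBP, so it is commonly read with the enzymes. Squamous epithelia use these lipids for membranes and for the barrier of their outer layers.

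Promoter sequences are shown for 5 members. They are the 2 INSIG genes, which differed in opposite directions, the enzyme genes MSMO1 and HMGCS1, and SREBF2, whose own expression differed little (0.06 in B1 and 0.17 in B2). The sequences are the 250 bases before the outermost annotated transcript start in RefSeq on GRCh38.p14, read 5′ to 3′ on the strand of the gene. The locations are chr7:155297628-155297877 (plus strand) for INSIG1, chr22:41832855-41833104 (plus) for SREBF2, chr4:165327419-165327668 (plus) for MSMO1, chr5:43313413-43313662 (minus) for HMGCS1 and chr2:118088221-118088470 (plus) for INSIG2. Capitals mark matches, on either strand, to 5 motifs: the sterol regulatory element TCACNCCAC, its core CACNCCAC, which every match of the longer form contains, the E-box-like form TCACNTGA, the NF-Y box CCAAT and the Sp1 box GGGCGG.
INSIG1: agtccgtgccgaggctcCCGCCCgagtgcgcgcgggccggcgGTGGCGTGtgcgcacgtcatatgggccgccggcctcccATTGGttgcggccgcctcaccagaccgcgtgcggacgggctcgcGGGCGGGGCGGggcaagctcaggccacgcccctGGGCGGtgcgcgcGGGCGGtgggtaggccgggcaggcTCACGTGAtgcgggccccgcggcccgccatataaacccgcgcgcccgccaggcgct
SREBF2: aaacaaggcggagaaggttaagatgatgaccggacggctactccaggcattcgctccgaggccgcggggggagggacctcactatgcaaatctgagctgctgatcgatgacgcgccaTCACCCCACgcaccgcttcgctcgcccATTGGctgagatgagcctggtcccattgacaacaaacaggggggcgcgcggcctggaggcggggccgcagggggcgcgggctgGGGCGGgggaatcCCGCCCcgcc
MSMO1: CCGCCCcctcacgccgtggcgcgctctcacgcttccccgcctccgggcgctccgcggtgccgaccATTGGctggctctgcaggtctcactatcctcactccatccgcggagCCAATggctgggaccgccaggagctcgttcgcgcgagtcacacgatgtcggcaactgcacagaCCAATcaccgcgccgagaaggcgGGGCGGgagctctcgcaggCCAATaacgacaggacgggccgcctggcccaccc
HMGCS1: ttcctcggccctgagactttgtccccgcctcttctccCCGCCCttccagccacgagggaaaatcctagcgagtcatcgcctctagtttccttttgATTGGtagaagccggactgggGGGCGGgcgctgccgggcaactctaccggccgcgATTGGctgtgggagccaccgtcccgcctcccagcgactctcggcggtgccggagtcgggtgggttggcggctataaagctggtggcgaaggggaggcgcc
INSIG2: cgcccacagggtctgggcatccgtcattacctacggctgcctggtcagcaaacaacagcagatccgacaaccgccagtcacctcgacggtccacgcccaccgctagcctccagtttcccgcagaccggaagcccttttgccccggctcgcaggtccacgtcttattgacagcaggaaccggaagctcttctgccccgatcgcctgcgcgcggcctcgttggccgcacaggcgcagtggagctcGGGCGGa

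In these windows INSIG1 had the E-box-like form 56 bases before its start, the core element on the opposite strand at 208 bases and an NF-Y box at 170 bases. SREBF2 had the full sterol regulatory element at 133 bases with an NF-Y box at 106 bases. MSMO1 held 4 NF-Y boxes and HMGCS1 held 2, and INSIG2 held only 1 Sp1 box. Over the 26 members in the promoter table, CYP51A1 and FADS1 included, counting a gene if any of its annotated starts had a match, NF-Y boxes were present in 18 members (69.2%) against 37.0% of 27305 genes, and Sp1 boxes in 25 (96.2%) against 46.2%. The core element was present in 6 members (23.1%; IDI1, SC5D, SREBF2, INSIG1, ACACA and SCD) against 5.89% of genes. The E-box-like form was found in EBP and INSIG1 (3.97% of genes) and the full element in SREBF2 alone (1.09% of genes). Of all 35116 windows, 32.01% held an NF-Y box, 42.6% an Sp1 box, 4.87% the core, 3.20% the E-box-like form and 0.883% the full element. These are letter matches in a reference sequence, and the arrays measured no binding. The motif spellings were chosen after several had been searched in the members' promoters, so the member shares are not a test of enrichment. Any link between the motifs and the expression differences was not tested.

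The 2 cisplatin arrays were unlike each other. Across all genes, log2 differences had an SD of 0.33 for B1 from untreated and 0.60 for B2 from untreated, and 0.56 for B2 from B1, so results that rest on B2 are given beside those of B1 throughout. The squamous markers fixed for the check were present, with 6 of the 7 measured at an intensity of 64 or more on every array, although their summed intensity was 14461 in untreated, 11451 in B1 and 23187 in B2. KRT14, a basal keratin, was at 278, 276 and 2372, and KRT5, DSG3, DSC3 and PERP were also highest in B2. By contrast, KRT13 was at 66.0, 68.2 and 25.5, and SOX2 at 5656, 2416 and 5308. An intensity of 64 on every array was reached by 0 of 5 leukocyte, 0 of 4 endothelial, 0 of 6 adipocyte, 1 of 7 fibroblast and 1 of 5 hepatocyte markers. Fibroblast markers summed to 297, 327 and 420, and adipocyte markers to 170, 184 and 193. The part of these shifts in the B2 values below was not tested. The ratio of 3′ to 5′ actin control probe sets was 2.57, 2.71 and 2.48, and that of GAPDH 1.04, 1.002 and 0.999.

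Most members of the pathway lay above untreated after cisplatin, and the distance was larger in B2. Relative to untreated, 18 members were higher and 9 lower in B1, and 21 higher and 6 lower in B2. Most genes lay above untreated as well. Of all 19775 genes, 10882 were higher and 8850 lower in B1, and 11191 higher and 8559 lower in B2. In both arrays 15 of the 27 members were higher (55.6%), against 39.2% of all genes, and 3 were lower (11.1%), against 27.4%. When dim genes (mean log2 below 6) were set aside, which left 26 members, the shares were 53.8% of members higher against 29.8%, and 11.5% lower against 34.2%. The median member difference was 0.06 in B1 and 0.28 in B2, and the median over all genes was 0.03 and 0.05. By a size rule of at least 0.32 on the log2 scale in both arrays, MSMO1 and INSIG1 were higher (7.41% of members against 5.91% of all genes) and ELOVL6 was lower (3.70% against 6.5%), which is near the background. Both differences use the same untreated array. The members were chosen with earlier results of these data known, so the shares describe them and are not a test. When only probe sets without an s, x or a suffix in their name were used, 19 members remained measured and 42.1% of them were higher in both arrays, against 40.2% of all genes, and 26.3% were lower in both, against 27.2%, so that both shares were then near the background. In bulk RNA, a change in the number of cells in some state and a change in RNA per cell cannot be told apart.

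In B1 alone, 3 members passed that size on the higher side (11.1%, against 11% of all genes) and 2 on the lower side (7.41%, against 11.8%), shares close to the background or below it. In B2 alone, 10 were higher (37.0% against 22%) and 3 lower (11.1% against 18.2%). At 2-fold in B2 the higher members were ACAT2, HMGCS1, SQLE and DHCR7 (14.8% against 2.99% of all genes, and 15.4% against 3.82% with dim genes set aside), and the lower ones were INSIG2 and ELOVL6 (7.41% against 4.5%). Limma, with Benjamini-Hochberg adjustment over all genes, called 0 of 19775 genes (0%) at 0.05, no member among them, and the adjusted p of members ran from 0.97 to 0.996. Unadjusted, 565 genes had p under 0.05. ELOVL6 was the 1 member among them, on the lower side, where 2.09% of all genes stood. The cisplatin pair supplied the single residual degree of freedom of that fit, which takes the untreated array to vary as the pair does. An exact permutation of the 3 arrays could not give a one-sided p under 0.333.

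**Figure D1:**
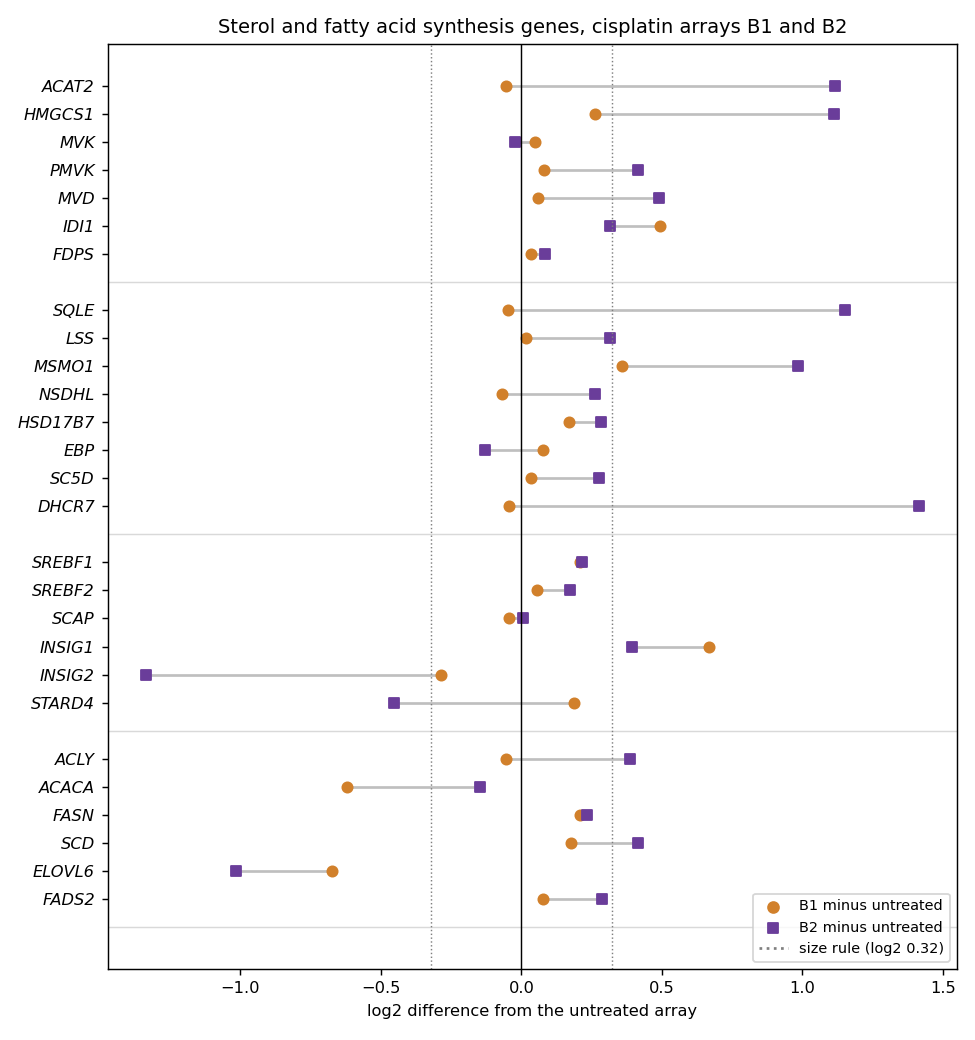
Log2 difference from the untreated array for the 27 measured members (circles B1, squares B2), grouped from top to bottom as enzymes to prenyl diphosphates, enzymes from squalene to cholesterol, regulators with STARD4, and fatty acid enzymes. Dotted lines mark a log2 difference of 0.32 either way; DHCR7 has the highest B2 value (1.41), with B1 at -0.05.

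Enzymes that take acetyl-CoA to prenyl diphosphates were the group with the highest B2 median (0.41, against 0.06 in B1). In both arrays 5 of 7 were higher (71.4%, against 39.2% of all genes) and none was lower (against 27.4%). HMGCS1, the cytosolic synthase that makes HMG-CoA, had an intensity of 416 in untreated, 500 in B1 and 899 in B2. Both cisplatin values lay above untreated, by 0.26 and 1.11 on the log2 scale (mean 0.69, limma SE 0.46), and the gap between them was larger than that of B1 from untreated. Its other probe set gave 0.37 and 1.58. ACAT2, the cytosolic thiolase that supplies the pathway, was at 244, 235 and 529, so B1 lay at the untreated level and B2 was 2.17-fold above it. The spread of that pair (SD 0.83) exceeded its mean difference (0.53, SE 0.61).

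IDI1, the isomerase of isopentenyl diphosphate, was the member of this group in which B1 differed most, at 1107, 1559 and 1379. Its differences of 0.49 and 0.32 (mean 0.41, SE 0.20) left it just under the size rule, because B2 was 1.246-fold above untreated. A probe set of nearly the same brightness gave 0.56 and 0.44, whereas the dimmest of its 4 gave -0.13 and -0.22. The 2 enzymes that follow mevalonate kinase were higher in B2 in particular: PMVK, phosphomevalonate kinase, was at 241, 255 and 321, and MVD, the decarboxylase, at 48.2, 50.2 and 67.5. MVD was the only measured member with a mean log2 value below 6, so its differences of 0.06 and 0.49 rest on a dim probe set. MVK, mevalonate kinase, was at 229, 237 and 226 (mean difference 0.01, SE 0.19), and FDPS, farnesyl diphosphate synthase, at 1002, 1027 and 1063 (mean 0.06, SE 0.19).

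Enzymes from squalene to cholesterol also had a higher median in B2 than in B1. Of 8 measured, 4 were higher in both arrays (50%, against 39.2% of all genes) and none was lower in both (against 27.4%). The medians were 0.03 in B1 and 0.30 in B2. DHCR7, the reductase that completes cholesterol from 7-dehydrocholesterol, had intensities of 819, 794 and 2183. B1 was level with untreated (-0.05) and B2 was 2.67-fold higher (1.41), at the 98.8th percentile of all genes' B2 differences. Its second probe set gave 431, 478 and 1472. SQLE, squalene epoxidase, a rate-limiting step of the branch, was at 582, 563 and 1293, again with B1 at the untreated level and B2 2.22-fold above it, and all 4 of its probe sets were between 0.96 and 1.5 in B2. The pair SD was 1.03 for DHCR7 and 0.85 for SQLE, each larger than the mean difference (0.68 with SE 0.75, and 0.55 with SE 0.63).

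MSMO1, the C4-methyl sterol oxidase, differed in the same direction in both arrays, at 468, 600 and 926. Its differences were 0.36 and 0.99 (mean 0.67, SE 0.36; limma adjusted p = 0.97), at percentiles 91.3 and 96.9 of all genes. The remaining enzymes differed less. LSS, lanosterol synthase, was at 305, 309 and 380, HSD17B7, a 3-ketosteroid reductase, at 400, 449 and 486, and SC5D, the C5 desaturase, at 1004, 1029 and 1217. Each was higher in both arrays by its brightest probe set. A dimmer LSS probe set gave -0.07 and -0.17 and the dimmest 0.14 and 0.42. The other SC5D probe set, also dim, gave -0.03 and 0.05. NSDHL, the C4 decarboxylase, was at 310, 295 and 372, below untreated in B1 and above it in B2. EBP, the sterol isomerase, was at 807, 851 and 739, and its mean difference (-0.03, SE 0.21) became 0.14 over all 4 of its probe sets.

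Taking the 15 enzymes of both steps together, 11 were higher than untreated in B1 and 13 in B2, with medians of 0.05 and 0.32. Of all 19775 genes, 10882 were higher in B1 and 11191 in B2. In B2, 7 were higher by at least 0.32 (46.7%, against 22% of all genes) and 0 were lower by as much (against 18.2%). In B1, 2 were higher by that size (13.3%, against 11% of all genes), near the background, and 0 were lower (against 11.8%). Set against B1 directly, B2 was higher by at least 0.32 in 8 of the 15 (53.3%, against 18.6% of all genes) and lower in 0 (against 16.1%). Over all 27 members B2 exceeded B1 by that amount in 10 (37.0%, against 18.6% of all genes) and lay under it in 3 (11.1%, against 16.1%). With dim genes set aside, 34.6% of the 26 members lay over B1 by that amount, against 24.4% of genes. Under it lay 11.5%, against 22.1%. The gap of B2 from B1 is between 2 arrays with the same label.

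**Figure D2:**
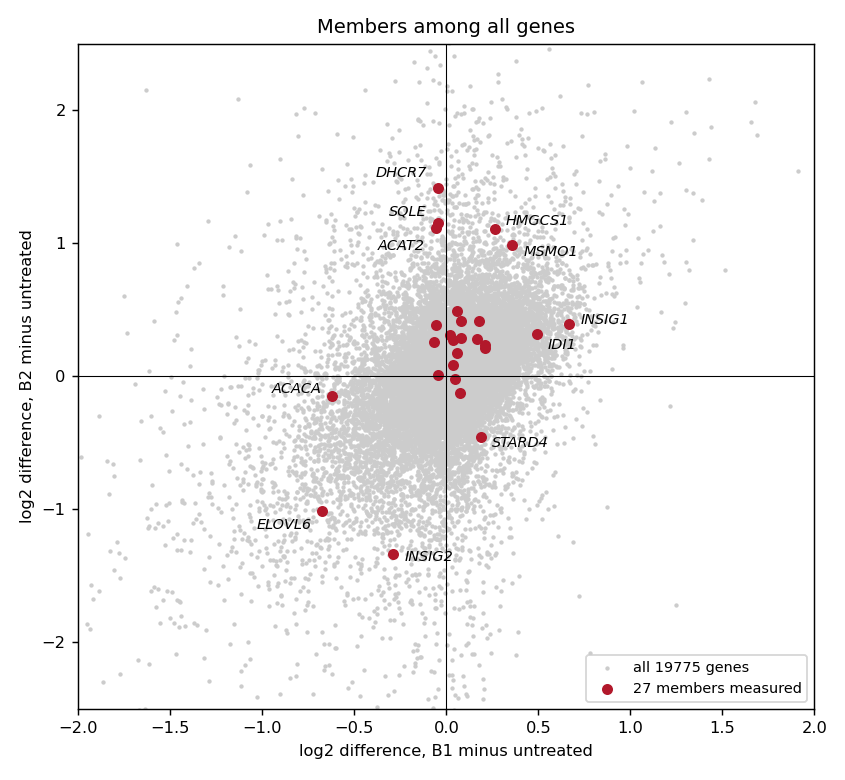
B1 difference (x axis) against B2 difference (y axis), both log2 from the untreated array, for all genes (grey) and the 27 members (red); 149 genes lie outside the axes. ACAT2, SQLE and DHCR7 sit near 0 in B1 and above 1 in B2, while INSIG1 and IDI1 are farther from 0 in B1 than in B2.

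The regulators did not share a direction. INSIG1, the retention factor that is itself an SREBP target, had intensities of 179 in untreated, 284 in B1 and 235 in B2. Both cisplatin arrays lay above untreated, by 0.67 and 0.40 (mean 0.53, SE 0.23; limma adjusted p = 0.97), and its 3 probe sets all lay above untreated in each array. Its B1 difference was the highest of any member, at the 98.9th percentile of all genes. INSIG2, which has the same retention function and is not an SREBP target, was at 278, 228 and 110. Both arrays lay below untreated, by -0.29 and -1.34 (mean -0.81, SE 0.55), so that INSIG2 was 1.22-fold lower in B1 and 2.52-fold lower in B2. It was measured by 1 probe set.

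The transcription factor genes themselves differed little. SREBF1 was at 74.4, 85.9 and 86.5, nearly the same in both cisplatin arrays (0.21 and 0.22; mean 0.21, SE 0.18), and its other probe set gave 0.48 and 0.41. SREBF2 was at 117, 122 and 132 (0.06 and 0.17), and its 3 probe sets were all higher in both arrays. SCAP, the escort protein, was at 280, 271 and 281 (mean -0.02, SE 0.19). STARD4, a cytosolic sterol carrier that is also induced by SREBP-2, went against the enzymes in B2, at 177, 201 and 129 (0.19 and -0.45).

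Fatty acid enzymes split by direction. FASN, the fatty acid synthase, was at 205, 237 and 240, close to equal in both cisplatin arrays (0.21 and 0.23, mean 0.22, SE 0.18). Its second, dimmer probe set gave 0.44 and 0.46. SCD, the stearoyl-CoA desaturase, was at 768, 869 and 1026 (0.18 and 0.42, mean 0.30, SE 0.22), and its 4 probe sets all lay above untreated in each array. FADS2, the delta-6 desaturase, was at 100.2, 106 and 122, but its dimmer probe set gave -0.02 and -0.11. ACLY, which makes cytosolic acetyl-CoA from citrate, was at 1698, 1634 and 2220, below untreated in B1 (-0.06) and above it in B2 (0.39), and its 3 probe sets all showed that split.

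ELOVL6, the elongase that takes palmitate to stearate, had the largest mean difference of the members on the lower side. Its intensities were 749 in untreated, 469 in B1 and 370 in B2, both well below untreated. The differences were -0.67 and -1.02 (mean -0.85, SE 0.25; limma adjusted p = 0.97), and all 3 of its probe sets were lower in both arrays, with a mean of -0.71 in B1 and -1.32 in B2. ACACA, acetyl-CoA carboxylase, the committed step of fatty acid synthesis, was at 425, 276 and 383. It was lower by -0.62 in B1 and -0.15 in B2, and its second, dimmer probe set gave 0.02 and 0.17, so the ACACA value rests on 1 probe set.

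ELOVL6 and ACACA were also the 2 members with genomic spans over 100 kb, at 153 and 322 kb, while the median member spanned 22.1 kb and the median gene 24.7 kb. Of the 3340 genes that long, 48.7% were lower in both arrays and 24.1% were lower by at least 0.32 in both. Of the 25 members of shorter span, INSIG2 was the 1 that was lower in both arrays (4%, against 23.1% of all genes up to 100 kb). In the same 25, 15 were higher in both (60%, against 42.2%). The part of gene length in the ELOVL6 and ACACA values was not tested.

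Probe sets of the same gene were compared where there were several, as in 18 of the 27 members. All of them had the same sign in 11 of the 18 in B1 and in 12 of the 18 in B2. Of the 60 probe sets, 38 were higher in both arrays, 8 lower in both and 14 split. With every gene set to the mean of its probe sets, 19 members were higher in both arrays (70.4%, against 42.2% of all genes) and 2 lower (7.41%, against 25% of all genes).

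**Figure D3:**
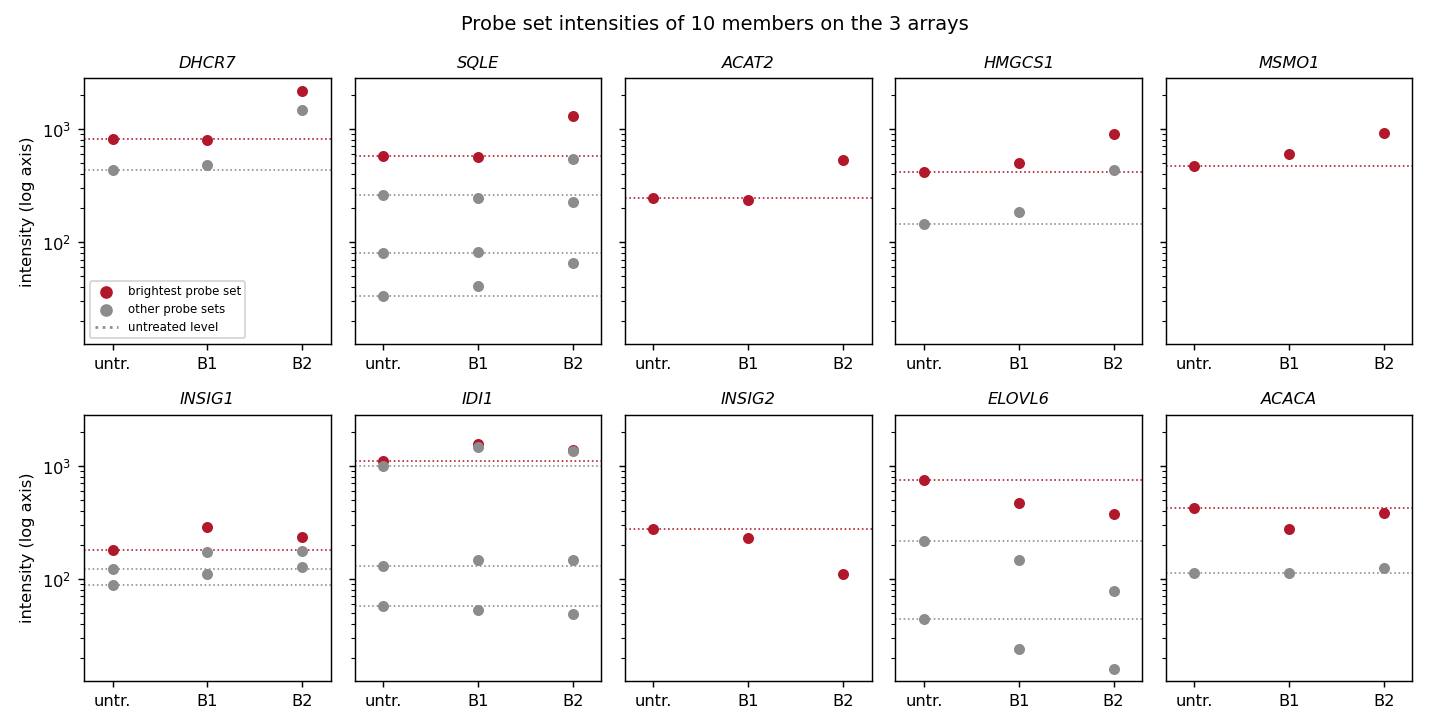
Intensity (log axis) of every probe set of 10 members on the untreated, B1 and B2 arrays; red is the brightest probe set, grey the others, and dotted lines carry each untreated level across. The 4 SQLE probe sets and the 2 of DHCR7 share the step in B2, and the 3 of ELOVL6 are lower in both cisplatin arrays.

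Neighbouring lipid genes outside the list were examined as 7 further groups, with reference genes for comparison. Their medians in B2 ran from -0.22 to 0.20, against 0.28 for the members. Members and lists were chosen with earlier results of these data known, so this contrast is not a test. For the group counts that follow, 39.2% of all genes were higher in both arrays and 27.4% lower in both. The other sterol synthesis genes (7 of 9 listed were measured) had medians of 0.15 in B1 and -0.20 in B2, with 2 higher and 2 lower in both arrays, and the isoprenoid branch (11 genes, GGPS1 being in both groups) had -0.03 and -0.22. In that branch PDSS2, a subunit of the synthase of the coenzyme Q side chain with a span of 307 kb, was at 165, 115 and 109.9. Sterol uptake and trafficking genes (10 of 13) had medians of 0.02 and 0.20, with 5 higher and 2 lower in both. Genes of SREBP processing and sterol-regulated degradation (13 of 16) had -0.20 and 0.05, and RNF145, a ubiquitin ligase that acts on SCAP, was at 1351, 1074 and 1060.

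The efflux, LXR and esterification group (11 of 12) had medians of -0.03 and 0.04, with 4 higher and 3 lower in both arrays. It held the largest difference of the 7 groups in each array. MYLIP, the LXR-induced ubiquitin ligase that degrades lipoprotein receptors, was at 116 in untreated, 279 in B1 and 354 in B2, higher by 1.26 and 1.61 (SE 0.25; limma adjusted p = 0.97). RXRA, the nuclear receptor that pairs with LXR, with a span of 114 kb, was at 205, 95.4 and 120.3, lower by -1.11 and -0.77 (SE 0.25; limma adjusted p = 0.97). Both arrays thus lay on the same side of untreated for each gene, and on opposite sides between the genes. Other genes of the group did not follow MYLIP. ABCA1 was at 59.0, 25.6 and 59.1 and ABCG1 at 57.3, 40.7 and 59.4, both dim and lower in B1 only. LPCAT3 was at 106, 108 and 103, and APOE, higher in both arrays, at 89.8, 108 and 106.

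Other fatty acid synthesis and handling genes (23 of 26) had medians of -0.01 and -0.13, with 7 higher and 11 lower in both arrays. SCD5, a further stearoyl-CoA desaturase with a span of 169 kb, was at 393, 260.1 and 236, lower by -0.60 and -0.74, whereas SCD itself was higher in both. ELOVL4, an elongase of very long chains, was at 24.8, 33.7 and 73.2, and ELOVL3 at 6.87, 8.60 and 12.5, both dim. Fatty acid oxidation genes (14 of 15) had medians of 0.08 and -0.12, with 4 higher and 4 lower in both, and PPARD, a lipid-sensing nuclear receptor, was at 285, 215 and 204. The 7 reference genes (ACTB, GAPDH, TBP, HPRT1, B2M, GUSB and PPIA) had medians of -0.01 and 0.04, and GUSB had the largest difference among them (0.23 and 0.43).

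**Figure D4:**
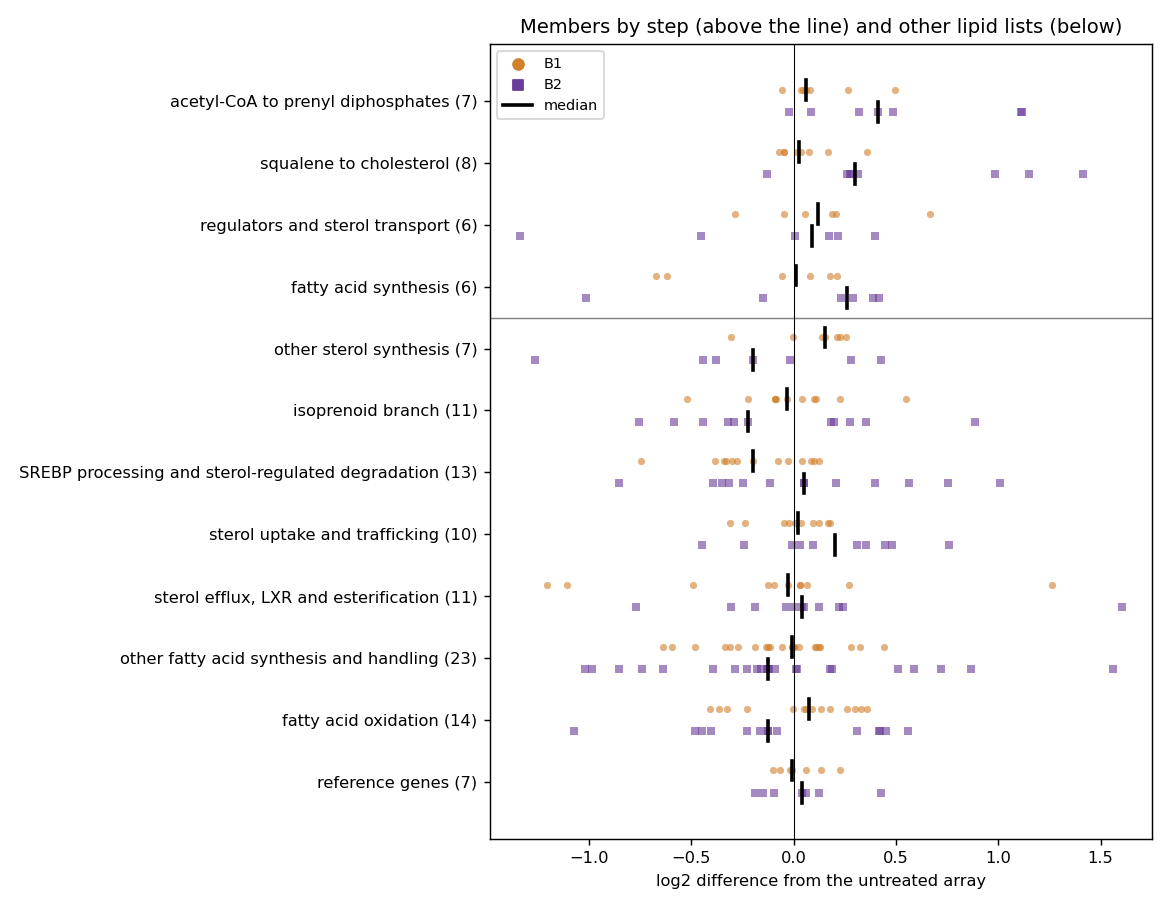
Log2 difference from the untreated array of each gene (circles B1, squares B2) with the median of each group as a black bar; the 4 member groups are above the line and 7 other lipid groups with the reference genes below it. Numbers in parentheses are genes measured; the B2 median is 0.41 for enzymes to prenyl diphosphates and -0.20 for the other sterol synthesis genes.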

How the data were processed

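The deposited values were intensities for 54675 probe sets on each of 3 arrays, made by the authors with RMA per the submitters' processing notes, with version and chip definition not given in the sources used here. Because the values ran from 3.03 to 19645, they were taken as linear and put on the log2 scale without a pseudocount. No detection calls were used, so a low intensity may be background, and precision is limited by the number of arrays.

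Control probe sets (62) stayed out. Of the rest, 41091 carried 1 gene symbol in the platform annotation, 1801 several and 11721 were unlisted; gene numbers gave current RefSeq symbols (GRCh38.p14) for 19734 of 19775 genes. Spans are annotated gene lengths from that table. Log2 values of all genes went through lmFit and eBayes of limma 3.58.1 (R 4.3.3, cisplatin minus untreated). The fit had first been tested on simulated data, where recovery of called genes was required only in a larger design than this one. For the present design only the size of the estimate was checked. The fit to these data had 2.01 prior degrees of freedom and Benjamini-Hochberg adjustment at 0.05. Standard errors combine the pair's spread with that prior. Figures and counts used Python 3.11.15 with pandas 2.3.3.

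All 30 members were to be named; from the other lipid lists, up to 3 genes a list with the largest mean difference among those at least 0.32 (log2) from untreated on the same side in both arrays, and the reference genes. Members and lists were chosen with earlier results of these data known. Motifs were chosen after several spellings had been searched in the members' promoters. Alternatives covered the probe set choice, normalization, a pseudocount, a filter on dim genes, other folds, the variance prior and each cisplatin array alone.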

Additional observations from a re-analysis of the deposited data

How the results depend on the processing

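No paired analysis was possible because the labels give the untreated array no replicate number. Limma called 0 genes under all 7 alternatives to its settings (565 with an unadjusted p under 0.05 in the reported fit, 508 to 680 over alternatives that kept all genes, 264 with a mean log2 of at least 6), and the number of members with an unadjusted p under 0.05 went from 1 to 0 with a variance trend, with the mean of all probe sets, with quantile normalization and with the dim filter. With either cisplatin array alone the limma fit has no residual degrees of freedom and was not run.

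With only the probe sets that have no s, x or a suffix, 19 members were measured, of which 8 were higher and 5 lower in both arrays, and the B2 median was 0.077; this setting leaves out 8 measured members, ACAT2 and DHCR7 among them. Quantile normalization gave 21 members higher in both arrays (77.8%, against 39.3% of all genes) and 4 past the size rule on the higher side in place of 2. The mean of all probe sets gave 3 past it on that side, FASN among them (0.32 and 0.35). A threshold of 1.1-fold gave 8 higher and 3 lower, 1.5-fold 0 higher, and 2-fold 0 higher and 0 lower. No all-gene share was computed for these thresholds, or for the size rule under quantile normalization or the mean of all probe sets. Those counts therefore cannot be set against a background. Leaving out each cisplatin array in turn, the members above untreated ranged from 18 to 21 and those below from 6 to 9. Those past the size rule ranged from 3 to 10 on the higher side (11% of all genes in B1 and 22% in B2). On the lower side they ranged from 2 to 3 (11.8% of all genes in B1 and 18.2% in B2). The medians (0.06 in B1, 0.28 in B2) otherwise ranged from 0.04 to 0.14 in B1 and from 0.25 to 0.36 in B2 under the mean of all probe sets, quantile normalization, centring, the pseudocount of 16 and the dim filter. The mean difference changed sign for EBP with all probe sets, for EBP and SCAP with quantile normalization, for MVK with centring, and for IDI1 (-0.18), EBP and FADS2 (-0.06) without suffixed probe sets.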

Other observations

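Some lipid genes outside the list, picked after their values were seen, had B2 values far from both other arrays in the direction opposite to the sterol enzymes. ACAT1, the mitochondrial thiolase of ketone and isoleucine metabolism, was at 1482 in untreated, 1480 in B1 and 617 in B2, whereas its cytosolic counterpart ACAT2 was at 244, 235 and 529. The elongase ELOVL5 was at 2396, 2198 and 1210, and HSD17B12, the reductase that serves the elongases, at 2887, 2661 and 1600. ACSL4, an acyl-CoA synthetase with a preference for arachidonate, was at 177, 143 and 87.6. TMEM97, a sterol-regulated membrane protein that binds NPC1, was instead above untreated in both arrays, at 774, 877 and 1312. Of the 15 sterol enzymes, 11 lay above untreated in B1 and 13 in B2. The limma adjusted p of each was 0.97.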
